A study of Citrus reticulata with 36 samples.

Results

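The integument of the ponkan mandarin ovule (Citrus reticulata) was compared between 32 and 28 days after pollination (DAP), and the change in the cultivar labelled MT was set against the change in the cultivar labelled WT. The 12 libraries used were chosen by their labels, not by any measured value, and are all integument libraries of these stages among the 36 libraries of the series. The 4 groups were MT at 32 DAP, MT at 28 DAP, WT at 32 DAP and WT at 28 DAP, with 3 libraries each. MT is the name the labels give to Huagan No.4 ponkan and WT the name they give to Egan No.1 ponkan, and neither name is spelled out further. No treatment is given for either cultivar. The remaining 24 libraries hold the integument at 18 DAP and the nucellus at 18, 28 and 32 DAP of the same cultivars. The cells were cut from sections by laser capture microdissection, and a small amount of total RNA per capture was amplified from random primers before RNA-seq. The labels call the libraries of a group biological replicates but name no plant behind any of them, so the p-values measure the spread between these libraries, which may in part be technical.

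The integument is the maternal cell layer that wraps the ovule and later forms the seed coat. It encloses the nucellus, the maternal tissue around the embryo sac, and in many citrus cultivars embryos also arise from nucellus cells beside the embryo that comes from fertilisation. Seed coat tissue divides, expands and starts to differentiate in the weeks after pollination, so transcript levels in the integument are known to shift between stages. The deposited features carry identifiers without gene names, and neither names nor sequences were used here. The features are therefore described by their levels only, with no role given to any of them, and lists of marker genes could not be applied.

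Read counts were deposited for 128861 features, of which 57344 had enough counts to be tested. Total counts of the 12 libraries lay between 16232098 and 20947644. The limit that a count of 0 allows, 3 counts, lay between 0.1432 and 0.1848 CPM, the count of a feature relative to the size of its library, and covers counting error only. Levels of single libraries are given below as CPM after TMM scaling, in the order of replicates 1, 2 and 3. Changes are log2 fold changes of 32 over 28 DAP, and the difference of changes is the MT change minus the WT change. It is positive where a feature went further up, or less far down, in MT than in WT. A feature was called where the edgeR quasi-likelihood test gave a Benjamini-Hochberg adjusted p under 0.05 over all tested features.

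Before any test, 2 of the 12 libraries stood apart. In a principal component analysis of log2 CPM in the 12 libraries, 38.2% of the variance fell on the leading axis. MT at 32 DAP scored 19.83, 245.7 and 69.86 on it, against -46.32, -91.66 and -75.97 for MT at 28 DAP. WT at 32 DAP scored 1.415, -109.8 and -111.5, against 165.3, -100.6 and 33.65 for WT at 28 DAP. The ends of this axis on the high side were therefore replicate 2 of MT at 32 DAP and replicate 1 of WT at 28 DAP, 1 library in each of 2 groups that the comparison sets on the same side. These were also the libraries with the lowest likeness inside a group: the correlation of log2 CPM over features was 0.85 between replicates 2 and 3 of MT at 32 DAP and 0.853 between replicates 1 and 2 of WT at 28 DAP, while replicates 2 and 3 of WT at 32 DAP reached 0.975. Values without these 2 libraries are given with the counts of called features below.

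The fitted changes of both cultivars had opposite signs in almost every feature called for a difference of changes. The difference of changes was called for 807 of the 57344 features, 1.41% of those tested (7757, or 13.5%, at an unadjusted p under 0.05). It was positive for 786 features, 1.37%, and negative for 21, 0.0366%. Among the called features 780, or 1.36% of those tested, had a fitted rise in MT and a fitted drop in WT, and all 21 negative ones had the reverse. In the remaining 6 called features both fitted changes were upward. Selection on the difference of changes favours opposite fitted signs, and no WT change was called on its own (edgeR), so the signs are no separate result. Over all tested features the fitted signs were opposite in 34679, or 60.5%, with 17029 up in MT and down in WT and 17650 down in MT and up in WT. The signs alone were therefore balanced over all features, while the called features lay almost wholly on the side of MT up and WT down. The count of 807 became 42 without replicate 1 of WT at 28 DAP, 150 without replicate 2 of MT at 32 DAP and 2 without both. With limma-voom and library quality weights the calls were less one-sided, with 3696 positive and 1950 negative.

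The fitted changes behind the 786 features were large in both cultivars, but in WT much less so without replicate 1 of WT at 28 DAP. Their difference of changes had a median of 5.03 on the log2 scale, with quartiles of 3.27 and 7.36, against a median of -0.01 over all tested features. Their MT change had a median of 2.95 and quartiles of 1.93 and 4.32. Their WT change had a median of -1.93 and quartiles of -3.16 and -1.18. Without replicate 1 of WT at 28 DAP the median WT change was -0.66. In 140 of the 786 all WT libraries of 32 DAP lay below those of 28 DAP. For none of the 786 was the WT change called on its own (edgeR). In 635 of them the fitted level went over 2-fold up in MT and over 2-fold down in WT, out of 2208 such features among all tested. In 52 of the 786 a compared group was at 0 in all 3 libraries, and with those groups put at 3 counts over the group the medians were 4.97, 2.94 and -1.91 for the difference, the MT change and the WT change. The MT change was the larger of both in size for 633 of the 786, or 80.5%, compared with 63.2% of all tested features. These values describe features that were selected on the same contrast and are not evidence for it.

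**Figure D1:**
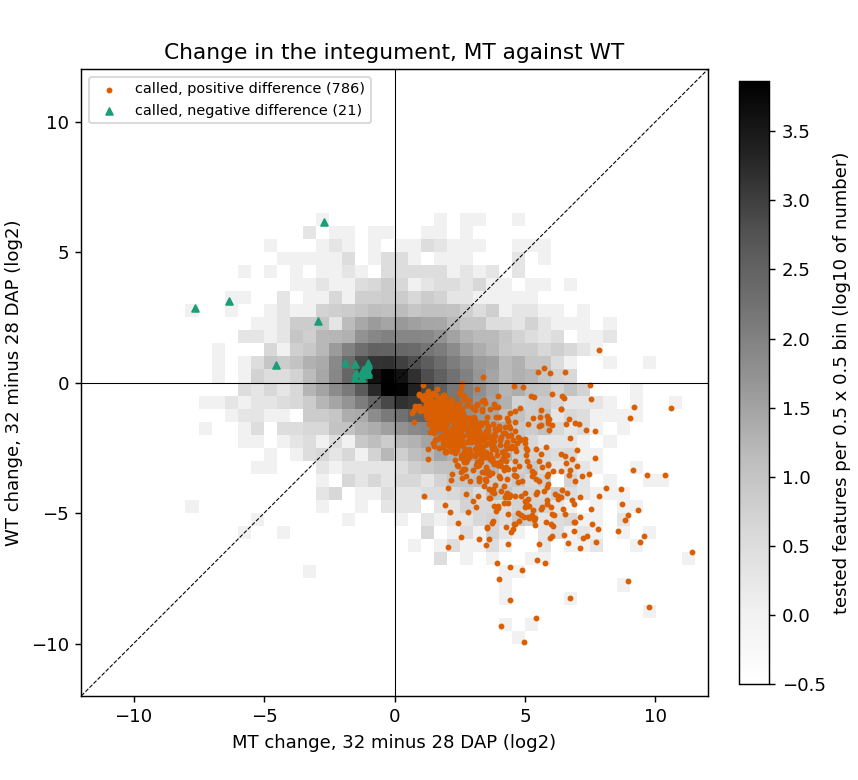
Log2 change from 28 to 32 DAP in MT (x axis) against the same change in WT (y axis) for the 57344 tested features, as grey shading for the log10 number of features per bin, with the 786 called features of positive difference as orange points and the 21 of negative difference as green triangles. The orange points all lie right of 0 on the x axis and, except for 6, below 0 on the y axis, and all 21 triangles lie in the opposite quadrant.

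The mean profile of the 786 features showed where each group stood. Each feature's log2 CPM was centred on its mean over all 36 libraries and averaged over the set. That average was 0.93, 2.59 and 1.18 in MT at 32 DAP, against -0.9, -1.37 and -1.29 in MT at 28 DAP, so the MT groups did not overlap. It was -0.79, -1.73 and -1.71 in WT at 32 DAP, against 1.67, -1.37 and -0.18 in WT at 28 DAP. Here the groups did overlap: replicate 2 of WT at 28 DAP lay below replicate 1 of WT at 32 DAP, and the group mean of WT at 28 DAP rested mostly on its replicate 1. The set took 1.336%, 4.382% and 1.849% of the CPM in MT at 32 DAP, against 0.557%, 0.4271% and 0.4408% in MT at 28 DAP. It took 0.6274%, 0.3366% and 0.3378% in WT at 32 DAP, against 2.42%, 0.415% and 0.8699% in WT at 28 DAP. Counted feature by feature, replicate 1 of WT at 28 DAP was the highest of the 6 WT libraries in 735 of the 786 features, or 93.5%, compared with 26.3% of all tested features. Replicate 2 of MT at 32 DAP was the highest of the 6 MT libraries in 706 of them, or 89.8%, compared with 25.9% of all tested features. MT at 32 DAP had the highest of the 4 group means in 745 features, and the lowest group mean was that of WT at 32 DAP in 470 and of MT at 28 DAP in 316.

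**Figure D2:**
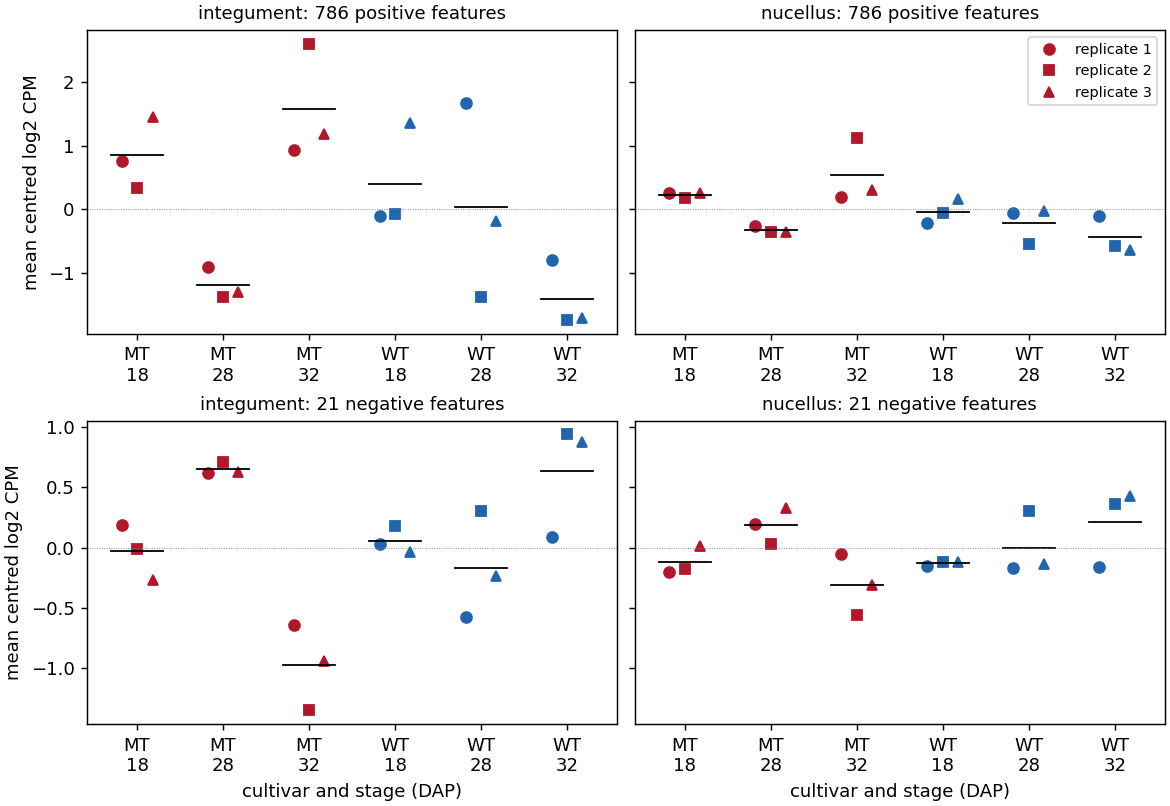
Mean centred log2 CPM (y axis) of the 786 features with a positive called difference (top) and of the 21 with a negative one (bottom), by cultivar and stage in DAP (x axis), in the integument (left) and the nucellus (right); points are libraries, shapes are replicates and bars are means of 3 libraries. In the integument the positive set is high in all 3 MT libraries of 32 DAP and in replicate 1 of WT at 28 DAP, whose value is 1.67.

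The feature c106676_g1, one of those separated in opposite directions in both cultivars, shows the pattern library by library. It had 17.4, 48.6 and 28.9 CPM in MT at 32 DAP, against 3.79, 2.41 and 3.87 CPM in MT at 28 DAP. It had 1.84, 1.71 and 1.71 CPM in WT at 32 DAP, against 38.1, 2.44 and 6.61 CPM in WT at 28 DAP. All 3 libraries of 32 DAP lay above those of 28 DAP in MT and below them in WT, and the group means were 31.67 ± 15.8 CPM in MT at 32 DAP against 3.354 ± 0.819 CPM in MT at 28 DAP, and 1.754 ± 0.0781 CPM in WT at 32 DAP against 15.7 ± 19.5 CPM in WT at 28 DAP (SD, n = 3 each). MT and WT changes differed by 6.39 ± 0.95 (log2, SE; edgeR, adjusted p = 0.00214), and it rose in MT by 3.23 ± 0.67 (edgeR, adjusted p = 0.0259). Its WT change was -3.16 ± 0.67 and was not called (edgeR, unadjusted p = 5.6e-05, adjusted p = 0.9). The call of its difference was kept in 23 of the 26 alternative settings.

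The feature c85427_g1 had the largest called difference among features at or above the median level. It had 140, 667 and 258 CPM in MT at 32 DAP, against 20.3, 2.77 and 4.46 CPM in MT at 28 DAP. It had 4.93, 1.38 and 1.71 CPM in WT at 32 DAP, against 257, 3.1 and 13.8 CPM in WT at 28 DAP. The MT groups were separated and the WT groups were not, because replicate 2 of WT at 28 DAP lay below replicate 1 of WT at 32 DAP. The difference of changes was 10.36 ± 2.08 (edgeR, adjusted p = 0.0115), with an MT change of 5.27 ± 1.47 and a WT change of -5.09 ± 1.48, neither of them called on its own (edgeR, adjusted p = 0.0855 in MT and 0.931 in WT). The next in rank, c74180_g1, differed by 10.15 ± 2.1 (edgeR, adjusted p = 0.0141), with 131, 631 and 275 CPM in MT at 32 DAP, against 28, 14.4 and 2.42 CPM in MT at 28 DAP. In WT it had 6.88, 0.57 and 0.807 CPM at 32 DAP, against 387, 6.15 and 12.6 CPM at 28 DAP, and again a single library of WT at 28 DAP was far above the other WT libraries. The calls of c85427_g1 and c74180_g1 were kept in 17 and 16 of 26 alternative settings. Without replicate 1 of WT at 28 DAP the differences were 6.93 for c85427_g1 and 6.3 for c74180_g1 and were not called (edgeR, adjusted p = 0.157 and 0.205), within a range of adjusted p over the settings from 9.0e-07 to 0.572 for c85427_g1 and from 5.0e-07 to 0.708 for c74180_g1.

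The MT change on its own was called for 317 features, 0.553% of those tested, with 296 higher at 32 DAP (0.516%) and 21 lower (0.0366%). Of the 786 features with a positive difference, 222 were among these. The count was 2 without replicate 2 of MT at 32 DAP, and 0, 1 and 4 without replicate 1, 2 or 3 of MT at 28 DAP, while it was 1062 without replicate 1 and 683 without replicate 3 of MT at 32 DAP. The largest rise among the separated features at or above the median level was that of c81249_g1, with 96.2, 372 and 5.84 CPM in MT at 32 DAP against 2.06, 1.32 and 2.85 CPM in MT at 28 DAP, a change of 6.24 ± 1.38 (edgeR, adjusted p = 0.0368). Its WT change was 0.31 ± 1.11, with 24.4, 3.09 and 4.22 CPM in WT at 32 DAP against 10.3, 1.38 and 13.9 CPM in WT at 28 DAP, and its difference of changes was not called (5.93 ± 1.69, edgeR, adjusted p = 0.0757). The second, c56380_g1, rose in MT by 6.02 ± 1.04 (edgeR, adjusted p = 0.0174), with 61.1, 262 and 5.72 CPM at 32 DAP against 1.67, 0.843 and 2.52 CPM at 28 DAP. In WT it had 3.99, 0.807 and 1.23 CPM at 32 DAP, against 8.36, 0.886 and 9.39 CPM at 28 DAP, and its difference of changes was 7.64 ± 1.35 (edgeR, adjusted p = 0.00528). In both features replicate 2 was the highest and replicate 3 the lowest of the MT libraries of 32 DAP, and all 3 lay above those of 28 DAP.

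The WT change on its own was called for 0 features (0% of those tested) with edgeR, where 2350 had an unadjusted p under 0.05 and the lowest adjusted p was 0.318. DESeq2 called 62 features, all lower at 32 DAP, limma-voom called 0, and limma-voom with library quality weights called 2035, of which 1682 were lower. Both settings on FPKM with limma called 0. Among the 786 features 602, or 76.6%, had an unadjusted p under 0.05 in WT, compared with 4.1% of all tested features, although the WT change is part of the contrast that selected them. Among the features at or above the median level that were separated downward in WT, c876_g1 followed c106676_g1 in unadjusted p. It had 3.49, 3.7 and 2.8 CPM in WT at 32 DAP against 46.8, 6.04 and 5.02 CPM in WT at 28 DAP, a change of -2.53 ± 0.63 (edgeR, adjusted p = 0.9). Its MT libraries overlapped, with 14.8, 27.3 and 52.5 CPM at 32 DAP against 16.9, 10.9 and 11.1 CPM at 28 DAP. The changes of c876_g1 differed by 3.82 ± 0.86 (edgeR, adjusted p = 0.0218). On the upward side, at or above the same level, the separated features with the lowest unadjusted p in WT were c56431_g1 and c99166_g1, with changes of 0.88 ± 0.31 and 0.99 ± 0.35, and neither was called (edgeR, adjusted p = 1 for both).

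The 21 features with a negative difference had smaller differences and higher levels. Their difference of changes had a median of -1.69, with quartiles of -2.65 and -1.52, an MT change with a median of -1.2 and a WT change with a median of 0.5. Their mean log2 CPM over the 12 libraries had a median of 4.17, compared with 1.81 for the 786 features and 2.23 for all tested features. All 21 were separated downward in MT, as were 10.3% of all tested features, and 5 were also separated upward in WT, a combination found in 0.426% of all tested features. The 21 were selected on this contrast, so nothing is read from these counts. Their mean centred log2 CPM was -0.64, -1.35 and -0.94 in MT at 32 DAP, against 0.62, 0.71 and 0.63 in MT at 28 DAP. In WT it was 0.09, 0.94 and 0.88 at 32 DAP, against -0.58, 0.3 and -0.24 at 28 DAP, so that replicate 2 of WT at 28 DAP lay above replicate 1 of WT at 32 DAP. Replicate 1 of WT at 28 DAP was the lowest of the 6 WT libraries in 15 of the 21 features, and in 15695 of the 57344 tested features. Replicate 2 of MT at 32 DAP was the lowest of the 6 MT libraries in 16 of the 21, and in 14556 of all tested features.

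Among features at or above the median level, the most negative difference was that of c99764_g1, at -2.65 ± 0.68 (edgeR, adjusted p = 0.0417). It had 9.52, 2.06 and 2.89 CPM in MT at 32 DAP, against 18.1, 18.5 and 17 CPM in MT at 28 DAP, and 6.63, 20.1 and 18.6 CPM in WT at 32 DAP, against 10.8, 11 and 4.72 CPM in WT at 28 DAP. The MT groups were separated and the WT groups overlapped. The feature c11363_g1 followed with -2.26 ± 0.56 (edgeR, adjusted p = 0.0341). It had 13.2, 7.08 and 10.8 CPM in MT at 32 DAP, against 28.1, 34 and 27.8 CPM in MT at 28 DAP, and 23, 31.5 and 36.2 CPM in WT at 32 DAP, against 6.57, 30.8 and 17.1 CPM in WT at 28 DAP. The calls of c99764_g1 and c11363_g1 were kept in 13 and 12 of 26 alternative settings.

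The features c7693_g1 and c116206_g1 had the most negative called changes in MT at or above the median level. The feature c116206_g1 had 15.5, 11.7 and 21.3 CPM in MT at 32 DAP, against 44.2, 45.5 and 49.6 CPM in MT at 28 DAP, and fell by 1.52 on the log2 scale with an SE of 0.26 (edgeR, adjusted p = 0.013). It had 36.3, 52.7 and 46.2 CPM in WT at 32 DAP, against 26.2, 53.6 and 38.4 CPM in WT at 28 DAP, and its difference of changes was -1.71 ± 0.36 (edgeR, adjusted p = 0.0125). Its MT groups were separated and its WT groups overlapped. The feature c7693_g1 had 4.49, 6.66 and 3.12 CPM in MT at 32 DAP, against 16.4, 10.2 and 16.2 CPM in MT at 28 DAP, a change of -1.58 ± 0.37 (edgeR, adjusted p = 0.044). Its difference of changes missed the threshold (-1.63 ± 0.51, edgeR, adjusted p = 0.113).

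**Figure D3:**
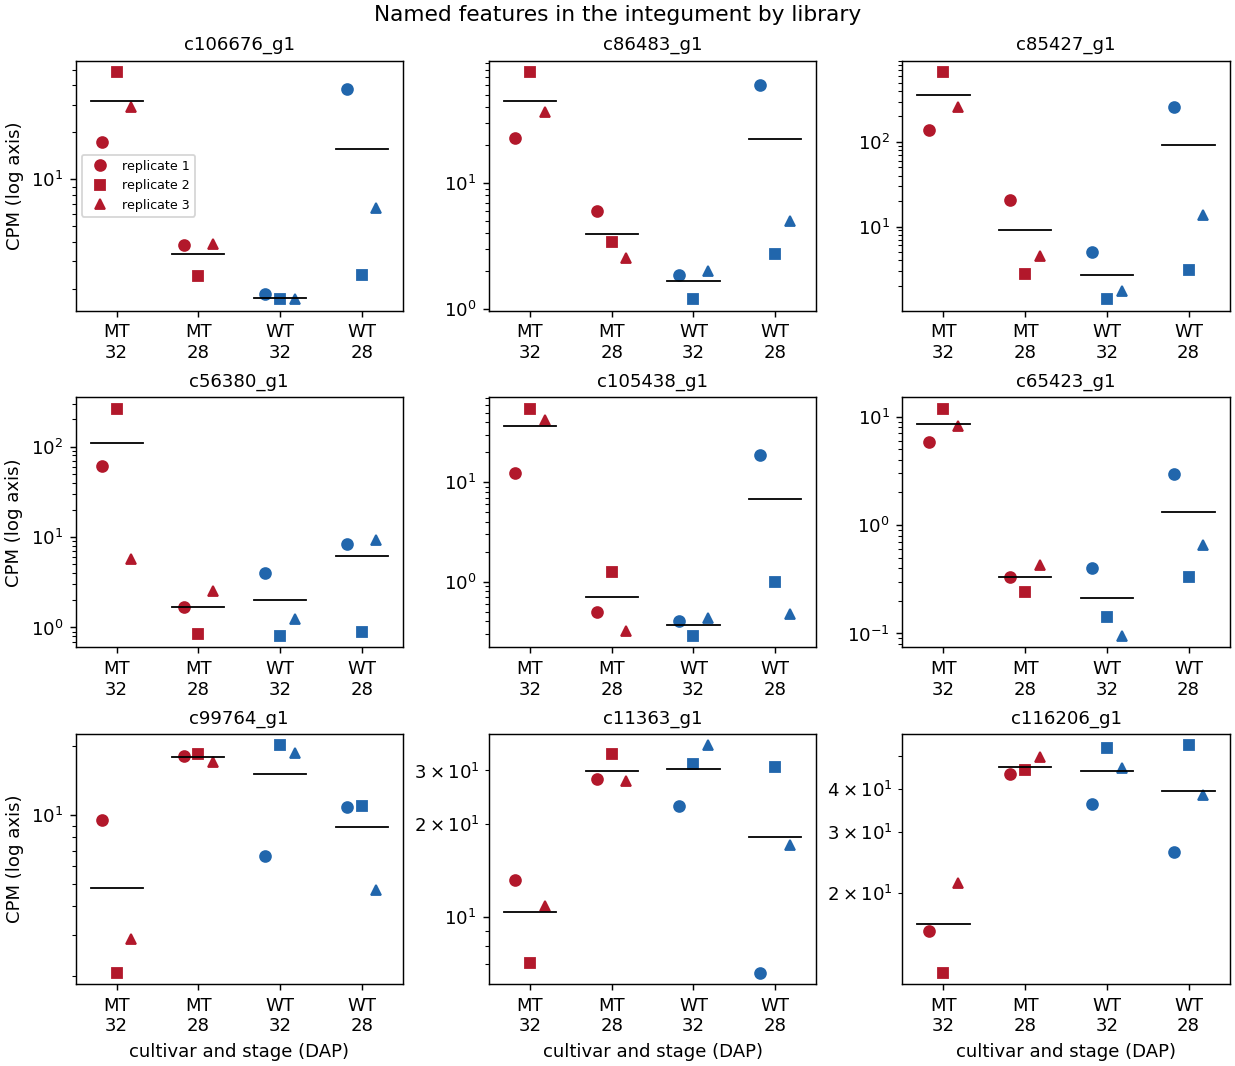
CPM on a log axis (y) of 9 named features in the 12 integument libraries by cultivar and stage in DAP (x); points are libraries, shapes are replicates and bars are group means. The upper 6 panels hold features with a positive difference, in which replicate 1 of WT at 28 DAP (blue circle) is the highest WT library except for c56380_g1, and the lower 3 panels hold features with a negative difference.

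Opposition was also counted without a model, by asking that the 3 libraries of 32 DAP lie wholly on one side of the 3 of 28 DAP in each cultivar. Separation alone occurred for 5806 features upward (10.1%) and 5904 downward (10.3%) in MT, and for 2880 upward (5.02%) and 2715 downward (4.73%) in WT. Both cultivars were separated in opposite directions in 376 features as MT up with WT down (0.656%) and in 244 as MT down with WT up (0.426%). Both were separated in the same direction in 218 features upward (0.38%) and 128 downward (0.223%). Of the 376 features 127 were called in the difference of changes, and of the 244 features 5 were called. The 376 features had a median difference of changes of 2.28, with a median MT change of 1.34 and a median WT change of -0.94. In 290 of the 376, or 77.1%, the highest WT library was replicate 1 of WT at 28 DAP. The 244 features had a median difference of changes of -1.56, with medians of -0.93 in MT and 0.63 in WT.

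In this count without a model, c86483_g1 stood first by the smaller of its changes, among features at or above the median level. It had 23, 76.3 and 36.5 CPM in MT at 32 DAP, against 6.02, 3.37 and 2.52 CPM in MT at 28 DAP, and 1.84, 1.19 and 1.99 CPM in WT at 32 DAP, against 59.9, 2.71 and 4.96 CPM in WT at 28 DAP. The MT and WT changes of c86483_g1 differed by 7.25 ± 1.39 (edgeR, adjusted p = 0.008). In the other direction c91307_g1 had 7.41, 5.02 and 12 CPM in MT at 32 DAP, against 27.7, 17.5 and 16.4 CPM in MT at 28 DAP, and 20.6, 18.8 and 30.3 CPM in WT at 32 DAP, against 14.5, 4.04 and 12.1 CPM in WT at 28 DAP. Its difference of -2.52 ± 0.97 was not called (edgeR, adjusted p = 0.225), and neither was that of c93177_g1 (-2.41 ± 1.38, adjusted p = 0.463).

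Across all tested features the MT and WT changes were inversely related, and the relation was weaker without the same 2 libraries. The Pearson correlation over the 57344 features was -0.311 and Spearman's rho -0.289. It was -0.578 in features at or above the median level and -0.282 in those below it. Features are not independent replicates and share their libraries and scaling, so this is a description with no p-value. Without replicate 1 of WT at 28 DAP the correlation was -0.0907, without replicate 2 of MT at 32 DAP it was -0.214, and without both it was -0.0385. The changes in MT were the larger ones, with a median size of 0.46 on the log2 scale in MT and 0.31 in WT, and 12783 features over 2-fold in MT compared with 6740 in WT.

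The number of called features depended on which library was left out. All 42 features called without replicate 1 of WT at 28 DAP, and all 150 called without replicate 2 of MT at 32 DAP, were among the 807. Counts were also lower without replicate 2 or 3 of MT at 28 DAP (184 and 213), without replicate 1 of MT at 28 DAP (489), and without replicate 2 or 3 of WT at 32 DAP (158 and 149). They were higher without replicate 1 of MT at 32 DAP (1511), replicate 2 of WT at 28 DAP (2329) or replicate 1 of WT at 32 DAP (1667). With all 12 libraries left out in turn, 40 of the 807 features kept their call every time, and 39 of these had a positive difference. With both outlying libraries left out together, 2 features were called.

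The sizes of the changes of the 786 features also moved with libraries left out. The libraries that stayed in each fit had taken part in selecting these features, so the values describe sizes and are no test of the direction. Without replicate 1 of WT at 28 DAP their median difference of changes was 3.61, compared with 5.03 in the full fit, and their median WT change was -0.66, compared with -1.93. Without replicate 2 of MT at 32 DAP their median MT change was 2.29, compared with 2.95. With fits on the 18 integument libraries alone, or on the 12 compared libraries alone, 0 features were called with edgeR (7935 and 7706 at an unadjusted p under 0.05), with lowest adjusted p-values of 0.0506 and 0.193. The common biological coefficient of variation was 0.439 over all 36 libraries, 0.439 over the 18 and 0.436 over the 12, with 24, 12 and 8 residual degrees of freedom.

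**Figure D4:**
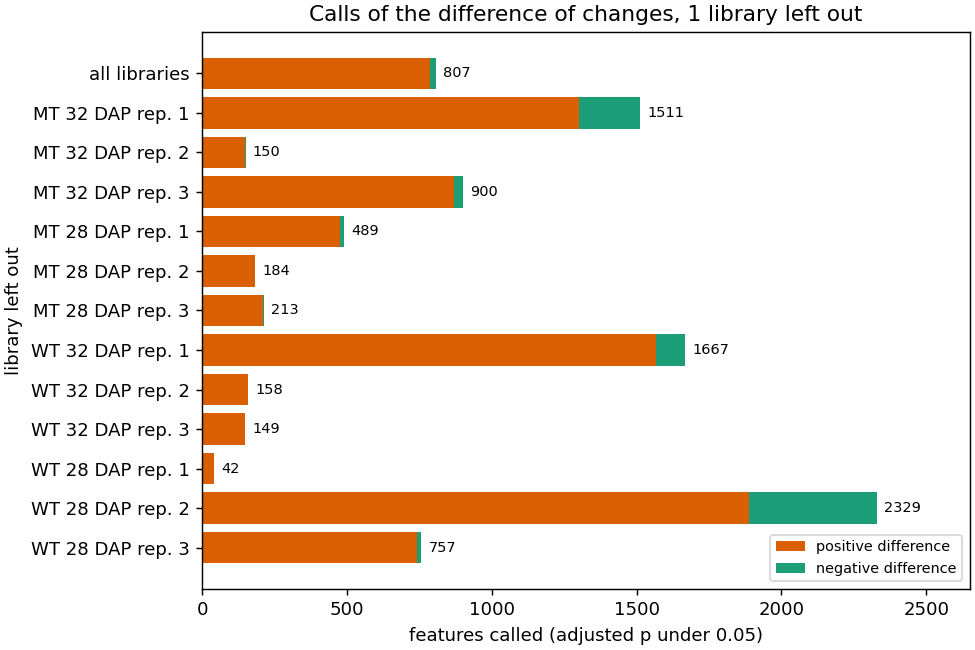
Number of features called for the difference of changes (x axis, adjusted p under 0.05) with all libraries and with each of the 12 compared libraries left out (rows), split into positive and negative differences. The bar without replicate 1 of WT at 28 DAP is the shortest, at 42, and that without replicate 2 of WT at 28 DAP the longest, at 2329.

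The 2 features called with both outlying libraries left out are given as chosen after their values were seen. The feature c65423_g1 had 5.84, 11.8 and 8.13 CPM in MT at 32 DAP, against 0.334, 0.241 and 0.429 CPM in MT at 28 DAP. It had 0.399, 0.142 and 0.0949 CPM in WT at 32 DAP, against 2.97, 0.332 and 0.65 CPM in WT at 28 DAP. In the full fit, which includes both outlying libraries, its difference of changes was 7.25 ± 0.94 (edgeR, adjusted p = 7.7e-04, the lowest of all tested features). In the same fit it rose in MT by 4.65 ± 0.67 (edgeR, adjusted p = 0.00328). Its WT levels at 32 DAP were near or below the level of 3 counts, and its MT levels at 28 DAP rest on 6, 4 and 8 counts. The feature c92578_g1 had 1.73, 12.8 and 7.13 CPM in MT at 32 DAP, against 0.223, 0.12 and 0.322 CPM (4, 2 and 6 counts) in MT at 28 DAP. It was at 0 in all 3 libraries of WT at 32 DAP, against 19.5, 0.443 and 0.827 CPM in WT at 28 DAP. With 3 counts over the 3 WT libraries of 32 DAP as the floor, 0.0482 CPM, its mean was at least 143-fold lower in WT at 32 DAP than at 28 DAP, and at least 13.2-fold lower when replicate 1 of WT at 28 DAP was left out. Its difference of 14.91 is also from the full fit, depends on the prior count and is not a bound (edgeR, adjusted p = 0.00214).

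The cultivars were also set against each other at single stages in the integument. At 32 DAP 391 of the 786 features were called between MT and WT, out of 583 called in all (1.02% of those tested), in a contrast that shares its libraries with the selection. At 28 DAP edgeR called 0 features in all (0%) and at 18 DAP 4 (0.00698%), and none of them was among the 786. At 18 DAP, a stage outside the comparison, their MT minus WT difference had a median of 0.34, with quartiles of 0.02 and 0.71, against -0.02 over all tested features. The mean centred log2 CPM of the set at 18 DAP was 0.76, 0.33 and 1.45 in MT, against -0.1, -0.07 and 1.36 in WT. Replicate 3 was the high library in both cultivars at this stage. In WT the 18 DAP libraries lay between the extremes of the 28 DAP libraries. In MT the set thus stood high at 18 DAP, low at 28 DAP and high at 32 DAP, but its levels at 28 and 32 DAP were part of its selection. The feature c106676_g1 followed this course in MT, with 28.3, 17 and 45.7 CPM at 18 DAP, and had 8.73, 8.82 and 22.7 CPM in WT at 18 DAP.

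The difference of changes in the nucellus was positive for most of these features, without calls. The nucellus levels were no part of the contrast that selected the 786 features, although the nucellus libraries shared in the estimate of the spread behind the calls. In the nucellus their difference of changes had a median of 1.26, with quartiles of 0.39 and 2.39, against 0.06 over all tested features. It was positive in 663 of them, or 84.4%, compared with 52.4% of all tested features. Their nucellus change had a median of 0.87 in MT and -0.29 in WT, against 0.03 and 0 over all tested features. None of the 786 was called in the nucellus, where edgeR called 3 features in all (0.00523% of those tested, 8016 at an unadjusted p under 0.05): c76317_g1, c88056_g1 and c120532_g1, named after their values were seen, with nucellus differences of 11.07, 5.72 and 6.37. DESeq2 called 928 in the nucellus. The 21 negative features had a median nucellus difference of -0.67, and 4 of them were positive.

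**Figure D5:**
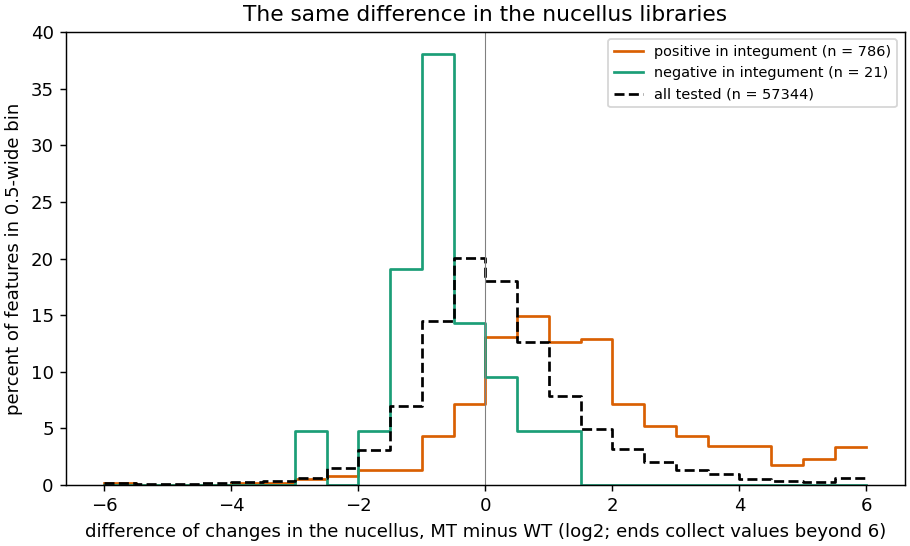
Share of features in percent (y axis) by their difference of changes in the nucellus (x axis, log2, bins of 0.5) for the 786 features with a positive called difference in the integument, the 21 with a negative one and all 57344 tested features. The curve of the 786 features is shifted to the right of that of all tested features, with medians of 1.26 and 0.06.

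Integument and nucellus libraries that share cultivar, stage and replicate number deviated from their group means together, so the nucellus is not an independent repeat. In the nucellus, replicate 2 of MT at 32 DAP was the highest of the 6 MT libraries for 512 of the 786 features, or 65.1%, compared with 21.5% of all tested features. Replicate 1 of WT at 28 DAP was the highest of the 6 WT libraries for 319, or 40.6%, compared with 31.9%. Computed on mean log2 CPM, the nucellus difference of the 786 features had a median of 0.93 with all libraries and was positive in 81.3%, and without these 2 nucellus libraries the median was 0.61 and 77.2% were positive, compared with 48.3% and 49.7% of all tested features.

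Single features differed in how far the nucellus followed the integument. In the nucellus c86483_g1 had 16.1, 85.5 and 55 CPM in MT at 32 DAP, against 7.96, 6.75 and 5.88 CPM in MT at 28 DAP, and 5.34, 3.81 and 2.83 CPM in WT at 32 DAP, against 58, 4.4 and 8.18 CPM in WT at 28 DAP. This was nearly its integument pattern, library for library, and its nucellus difference of 5.47 was not called (edgeR, adjusted p = 0.108). In contrast c106676_g1 was low in every nucellus library, with 2.56, 5.11 and 4.38 CPM in MT at 32 DAP, against 1.94, 2.57 and 1.34 CPM in MT at 28 DAP. It had 0.489, 1.53 and 0.695 CPM in WT nucellus at 32 DAP, against 1, 1.03 and 0.774 CPM at 28 DAP. At 18 DAP c106676_g1 was already lower in the nucellus than in the integument (log2 -2.9, edgeR, adjusted p = 3.3e-05). The integument minus nucellus difference of changes was called for neither feature. It was 5.31 for c106676_g1 (edgeR, adjusted p = 0.428) and 1.78 for c86483_g1 (edgeR, adjusted p = 0.94).

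Whether the difference of changes was larger in the integument than in the nucellus was tested as its own contrast. Without regard to the replicate numbers, 0 features were called (0% of those tested) with edgeR, where 3567 had an unadjusted p under 0.05 and the lowest adjusted p was 0.23. DESeq2 called 74. With the tissue difference taken within same-numbered libraries, edgeR called 3 features, 0.00523% of those tested: c105438_g1, c88035_g1 and c22847_g1. This fit was added after the likeness of same-numbered libraries had been seen, and the 3 features are named after their values were seen. All 3 were among the 786, which adds no support, since the integument contrast is part of this one. All 3 were separated upward in MT and downward in WT in the integument, but in WT narrowly for c105438_g1 and c88035_g1. For c105438_g1 the closest WT libraries had 0.427 CPM at 32 DAP (9 counts) and 0.472 CPM at 28 DAP (8 counts). For c88035_g1 they had 1.1 CPM at 32 DAP (22 counts) and 1.11 CPM at 28 DAP (20 counts).

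The feature c105438_g1 had 12.5, 54.6 and 42.5 CPM in MT integument at 32 DAP, against 0.501, 1.26 and 0.322 CPM at 28 DAP, and 0.399, 0.285 and 0.427 CPM in WT integument at 32 DAP, against 18.7, 0.997 and 0.472 CPM at 28 DAP. In the nucellus it had 9.12, 43.7 and 29.1 CPM in MT at 32 DAP, against 10.3, 8.18 and 5.47 CPM at 28 DAP, and 4.53, 5.39 and 5.56 CPM in WT at 32 DAP, against 48.7, 2.5 and 5.14 CPM at 28 DAP. At 32 DAP its levels in MT were thus alike in both tissues, and it was much lower in the integument than in the nucellus in MT at 28 DAP and in WT at 32 DAP. In WT at 28 DAP each integument library was also below its same-numbered nucellus library. The low integument levels rest on few reads, with 9, 21 and 6 counts in MT at 28 DAP and 8, 6 and 9 counts in WT at 32 DAP. Its difference of changes was 9.87 ± 1.68 in the integument (edgeR, adjusted p = 0.00465) and exceeded that of the nucellus by 5.93 ± 0.68 within same-numbered libraries (edgeR, adjusted p = 0.00278). That call held when each of the 12 same-numbered pairs was left out in turn, with values between 5.52 and 6.56 and a highest adjusted p of 0.0225 (edgeR).

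The feature c22847_g1 was the most abundant of the 3, with 229, 748 and 303 CPM in MT integument at 32 DAP against 44.1, 29.4 and 32.1 CPM at 28 DAP. It had 30.7, 20.3 and 24 CPM in WT integument at 32 DAP, against 160, 34.9 and 47.9 CPM at 28 DAP, so that both cultivars were fully separated in opposite directions. Its nucellus levels were 166, 430 and 177 CPM in MT at 32 DAP against 145, 167 and 152 CPM at 28 DAP, and 163, 73.2 and 62.5 CPM in WT at 32 DAP against 351, 56.6 and 153 CPM at 28 DAP. Its difference of changes was 5.29 ± 0.88 in the integument (edgeR, adjusted p = 0.00391) and exceeded that of the nucellus by 3.54 ± 0.48 (edgeR, adjusted p = 0.0169). In MT integument c88035_g1 had 9.19, 36.5 and 19.2 CPM at 32 DAP, against 0.501, 0.241 and 0.644 CPM (9, 4 and 12 counts) at 28 DAP. In WT integument it had 1.1, 0.285 and 0.285 CPM (22, 6 and 6 counts) at 32 DAP, against 18.4, 1.11 and 3.43 CPM at 28 DAP. The excess of c88035_g1 was 4.94 ± 0.69 (edgeR, adjusted p = 0.0169), on top of a difference of 9.29 ± 1.48 in the integument (edgeR, adjusted p = 0.00306). These calls between tissues were kept in 7 and 5 of the 12 fits that left out a pair, with highest adjusted p-values of 0.0882 and 0.0948 (edgeR).

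Levels of features typical of each tissue were followed as a check on the captures, since a capture of integument can hold neighbouring cells. At 18 DAP, in libraries outside the comparison, 1198 features were called over 4-fold higher in the nucellus and 3210 over 4-fold higher in the integument, as the mean over both cultivars (2.09% and 5.6% of those tested). The nucellus list took 0.496% ± 0.0721 of the CPM in MT at 32 DAP (SD, n = 3) against 0.363% ± 0.00879 in MT at 28 DAP, and 0.381% ± 0.014 in WT at 32 DAP against 0.341% ± 0.00652 in WT at 28 DAP. Over the 12 integument libraries it ranged from 0.3346% to 0.5771%, and over the nucellus libraries from 2.33% to 4.674%. Its difference of changes was 0.0937 percentage points (exact permutation test of stage labels within cultivar, two-sided p = 0.2, adjusted over both lists 0.4, lowest possible 0.005). The MT change and the WT change each had p = 0.1 in the exact test, the lowest that 3 against 3 libraries allow. The integument list took 3.81% ± 0.256 in MT at 32 DAP against 4.04% ± 0.163 in MT at 28 DAP, and 3.67% ± 0.775 in WT at 32 DAP against 4.17% ± 0.755 in WT at 28 DAP (exact permutation p = 0.845 for the difference of changes). Over the nucellus libraries the integument list took 0.5175% to 0.6964%, well below its share in any of the 12 integument libraries.

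Some of the 786 features belonged to these lists. The integument list held 170 of them, or 21.6%, compared with 5.6% of all tested features, and the nucellus list held 57, or 7.25%, compared with 2.09%. Their nucellus minus integument difference at 18 DAP had a median of -0.47, against 0.02. The highest nucellus list share, 0.5771%, was in replicate 2 of MT at 32 DAP, and the lowest, 0.3346%, in replicate 1 of WT at 28 DAP, and these were the MT and the WT library in which the 786 features were highest. The shares of both lists include their members among the 786, so they are not independent of the selection. In these bulk captures fewer cells of a type and less RNA per cell cannot be told apart, and the part of tissue composition in the 807 calls was not tested. The implied length of the 786 features, from the deposited count and FPKM, had a median of 1956.9 bases, against 1975.24 bases over all tested features.

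None of the 4 features with the largest differences in mean CPM was called. The feature c94721_g1 had the largest positive one, with 84200, 95900 and 63300 CPM in MT at 32 DAP, against 68800, 105000 and 113000 CPM in MT at 28 DAP. It had 79600, 68700 and 66800 CPM in WT at 32 DAP, against 87900, 84600 and 130000 CPM in WT at 28 DAP. The MT groups overlapped while the WT libraries of 32 DAP lay below those of 28 DAP, and the difference of changes was 0.25 ± 0.48 (edgeR, adjusted p = 0.866). The feature c122222_g1 differed by 1.13 ± 1.41 (edgeR, adjusted p = 0.777), c70766_g1 by -1.12 ± 0.37 (adjusted p = 0.138) and c5821_g1 by -0.61 ± 0.56 (adjusted p = 0.676). The lowest of these p-values belonged to c70766_g1, with 2450, 1350 and 1620 CPM in MT at 32 DAP, against 3080, 2730 and 3140 CPM in MT at 28 DAP. It had 2870, 3800 and 3810 CPM in WT at 32 DAP, against 1270, 3580 and 3110 CPM in WT at 28 DAP.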

How the data were processed

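Laser-captured integument and nucellus of MT and WT ovules at 18, 28 and 32 DAP gave 36 RNA-seq libraries, 3 per group. The stage digits 1, 2 and 3 of the column names were read as 18, 28 and 32 DAP. Per feature, the authors deposited read counts and, separately, FPKM values. cutadapt, Bowtie2, RSEM and DESeq are named, without versions, per the submitters' processing notes. The sources used here do not name a reference. The deposited counts are whole numbers, and no source records how they were made whole. Per the labels' protocols the RNA was amplified before library preparation and sequenced on 2 instrument models, with no statement of which library ran on which, so instrument and group cannot be told apart.

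Counts were fitted in R 4.3.3 with edgeR 4.0.16 (TMM scaling, robust quasi-likelihood test, Benjamini-Hochberg adjustment over all tested features) in one model of all 36 libraries, after the edgeR filter on low counts, which kept between 99.72% and 99.95% of the counts of a library. The spread was thus shared over all 12 groups. TMM factors were between 0.592 and 1.23. Log2 CPM used a prior count of 2. An SE is the log2 value divided by the square root of its F statistic. Features were named among those at or above the median level: the 2 largest and 2 most negative called differences with opposite signs and a separated cultivar, the same for each cultivar's change (smallest unadjusted p where fewer than 2 were called), the separated opposed features with the largest smaller change, and the largest differences in mean CPM. Members, lists and tests were chosen with earlier results of these data known. Alternatives included DESeq2 1.42.0 and limma 3.58.1 (voom, and log2 FPKM with pseudocounts of 1 and 0.1), and the tests were tried on simulated data.

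Same-numbered integument and nucellus libraries of a cultivar and stage deviated from their group means together (correlation over features 0.196 to 0.482 in 12 of 12 pairs, mean with other numbers -0.304 to -0.0621, each integument library closest to its own number), so the tissue contrast was also fitted within these pairs, a fit added after this was seen. Deviations from a group mean cancel over its libraries, so the negative means with other numbers follow from the same-number values and add nothing to them. Whether same-numbered pairs came from the same ovules is not stated. Intervals and floors cover counting error only, and amplified reads are not independent molecules.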

Additional observations from a re-analysis of the deposited data

Results flagged for a closer look

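The change from 28 to 32 DAP in the integument differed between MT and WT by a test of the difference itself (edgeR) for 807 features, and this is what singled out the features below. No group had more than 3 libraries, so single libraries were not tested for being outlying.

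Among the positive differences c92578_g1 had 14.91, c85427_g1 10.36, c74180_g1 10.15, c105438_g1 9.87, c88035_g1 9.29 and c56380_g1 7.64 on the log2 scale. The value of c92578_g1 depends on the prior count, since its summed count in WT at 32 DAP was 0. Both c86483_g1 and c65423_g1 had 7.25, c106676_g1 had 6.39, c22847_g1 had 5.29 and c876_g1 had 3.82. In all of these except c56380_g1 replicate 1 of WT at 28 DAP was the highest of the 6 WT libraries, and in all except c876_g1 replicate 2 of MT at 32 DAP was the highest of the 6 MT libraries. The negative differences were -2.65 for c99764_g1, -2.26 for c11363_g1 and -1.71 for c116206_g1. Replicate 2 of MT at 32 DAP was the lowest MT library in all 3 of these.

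Between tissues the difference of changes was larger in the integument than in the nucellus, within same-numbered libraries, by 5.93 for c105438_g1, 4.94 for c88035_g1 and 3.54 for c22847_g1 on the log2 scale (edgeR). This fit was added after the likeness of same-numbered libraries had been seen. Without regard to the replicate numbers these features were not called (edgeR, adjusted p = 0.573, 0.726 and 0.548 in the same order). With a same-numbered pair left out, the calls were kept in 12, 5 and 7 of 12 fits.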

How the results depend on the processing

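The 807 calls and the 801 of opposite sign stayed within 1.5 times under RLE or upper-quartile scaling, a filter of 1 CPM, non-robust dispersion and the replicate block. No filter gave 472 calls and 470 opposed, DESeq2 1919 and 1891, voom 20 and 20, voom with quality weights 5646 and 5573, log2(FPKM + 1) 454 and 453, log2(FPKM + 0.1) 381 and 379, the 18 or the 12 integument libraries alone 0 and 0 (edgeR, 7935 and 7706 at an unadjusted p under 0.05), and both outlying libraries left out 2 and 2. Leaving out 1 library gave 42 to 2329 calls and 41 to 2317 opposed.

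For the MT change (317) no filter gave 142, DESeq2 1928, voom 61, voom with quality weights 1890, log2(FPKM + 1) 777, log2(FPKM + 0.1) 544, the 18 or 12 libraries 0, both outlying libraries left out 32, and leaving out 1 library 0 to 1062. Without replicate 1 of MT at 28 DAP it was 0 and without replicate 2 of MT at 32 DAP 2. For the WT change (0) DESeq2 gave 62, voom with quality weights 2035, and leaving out 1 library 0 to 5.

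For the nucellus difference (3) no filter gave 1, DESeq2 928, voom 0, voom with quality weights 1284 and leaving out 1 library 0 to 1001. For the difference between tissues (0) DESeq2 gave 74, the block of same-numbered libraries 3 and leaving out 1 library 0 to 6. Within same-numbered libraries (3) leaving out a pair gave 1 to 19. The 18 DAP lists (4408 features) had 1159 with log2(FPKM + 1), and 4326 to 4502 with 1 library left out.

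Replicate numbers across integument groups shared only a number: of 18 same-numbered pairs, 3 had deviations correlated over 0.1 (-0.479 to 0.431), and 1 of 12 libraries was closest to its own number. With the replicate number as a block 706 features were called for the difference and 199 for the MT change.

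The correlation of the MT and WT changes was between -0.372 and -0.0907 with 1 library left out and between -0.558 and -0.0385 otherwise. The share of the positive features with a positive nucellus difference (84.4%) was between 77.1% and 89.3% with 1 library left out and between 50% and 86.4% otherwise. With both outlying libraries left out very few features were called, so a share in a setting can rest on few features. Of 650 settings over 25 values of named features 529 kept their direction and their status as called or not called, 110 lost the call and 10 gained one. The 529 include values that were not called in the full fit and stayed uncalled, so they are not a count of calls kept. c5821_g1 changed sign, to 0.1, with quality weights. The cause of these changes was not tested. Groups of 3 libraries and levels near 3 counts limit what can be told.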
